A study of Mus musculus with 11 samples.

Results

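Most of the genes described here build and run the axoneme, the moving core of the motile cilium. They were chosen by name, which also took in a few genes of other roles: every probe set whose array annotation gives exactly 1 gene symbol beginning Dnah, Dnaic, Dnai, Dnali, Rsph, Tekt, Spag, Spef or Drc, or equal to Foxj1, Ccdc39, Ccdc40, Lrrc6, Tppp3, Mlf1 or Pifo. Of 45101 probe sets on the array, 69 probe sets of 46 genes met the rule, and 61 of them, of 43 genes, had a mean signal of at least 20 over the 11 arrays and were tested among 33662 probe sets. The 8 probe sets left out include all those of Dnah17, Rsph6a and Spag6. The rule uses names and overall brightness, not the comparison of groups.

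The arrays hold RNA of the undivided main olfactory epithelium (MOE), the sensory sheet of the nose, from newborn BALB/c mice at postnatal day 0. There were 5 wild type arrays, all from males, and 6 arrays of Bcl11b KO mice, of which 4 came from males and 2 (KO 3 and KO 6) from females. The KO is a conventional one. Bcl11b, a zinc finger transcription factor, was deleted in every cell type of the dissected tissue and not in the olfactory sensory neurons (OSNs) alone. The labels give no litter or dissection day, so the p-values measure only the spread between these preparations.

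Motile cilia carry rows of dynein motors on their doublet microtubules, with radial spokes and a central pair that pattern the beat and a nexin link that holds the doublets together. In the nose they belong to the multiciliated cells of the respiratory epithelium, while the cilia of mammalian OSNs carry odorant receptors and lack dynein arms. In whole tissue, fewer cells of a type and less RNA per cell cannot be told apart.

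Bcl11b itself fell on each of 4 probe sets. For the brightest, the wild type arrays read 3265.2, 4122.7, 3061.8, 2694.3 and 3141.5, and the KO arrays had a lowest value of 560.5, a median of 912.4 and a highest of 1249.8. The change on the log2 scale was -1.88 ± 0.17 (SE), with an adjusted p of 1.2e-05 in limma, and the groups did not overlap. Median signals ran from 56.6 to 85.7 in wild type and from 62 to 86.5 in KO (exact two-sided permutation test, p = 0.71), and the GAPDH 3'/5' ratio, which rises as RNA degrades, from 1.88 to 2.27 and from 1.83 to 2.70 (exact p = 0.788).

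No motile cilia probe set passed the test in either direction: 0 of 61 were called higher and 0 lower at an adjusted p under 0.05 (limma), where 153 of all 33662 probe sets, 0.455%, were called. The smallest adjusted p among them was 0.382. At an unadjusted p under 0.05, 3 were higher in KO (Tppp3, Lrrc6 and Dnali1) and 1 was lower (a dim probe set of Spef2), against 6.92% of all probe sets, 4.47% higher and 2.45% lower. The KO and wild type arrays overlapped for every one of the 61, and they did not overlap for 1.29% of all probe sets. With shares as low as 0.455% and 1.29%, counts of 0 among 61 do not set the members apart from other probe sets.

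The changes of the 61 probe sets ran from -0.63 to 0.56 on the log2 scale, with a median of 0.0094, beside 0.047 for all probe sets tested. There were 32 positive and 29 negative changes, 52.5% positive, beside 60.4% of all. This balance moved with the setting: 44 of 61 were positive among males only, and 17 of 61 when the arrays were scaled on spiked controls. With sex as a covariate the changes were the same as among males only, because no wild type array came from a female. Taking 1 probe set per gene, the brightest, 24 genes were positive and 19 negative. The 95% interval of the change lay within 2-fold in both directions for 59 of the 61, as for 94.6% of all probe sets, and the exceptions were Tekt5 and a dim probe set of Spef2. From the change to either end of its interval was 0.38 on the log2 scale in the median. Changes of single genes smaller than that would not stand apart from 0 on most of these probe sets. The adjusted test is stricter than this interval, so larger changes could also go uncalled. On the dim probe set of Spef2 a change of -0.63, with an interval clear of 0, had an adjusted p of 0.483 (limma).

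**Figure D1:**
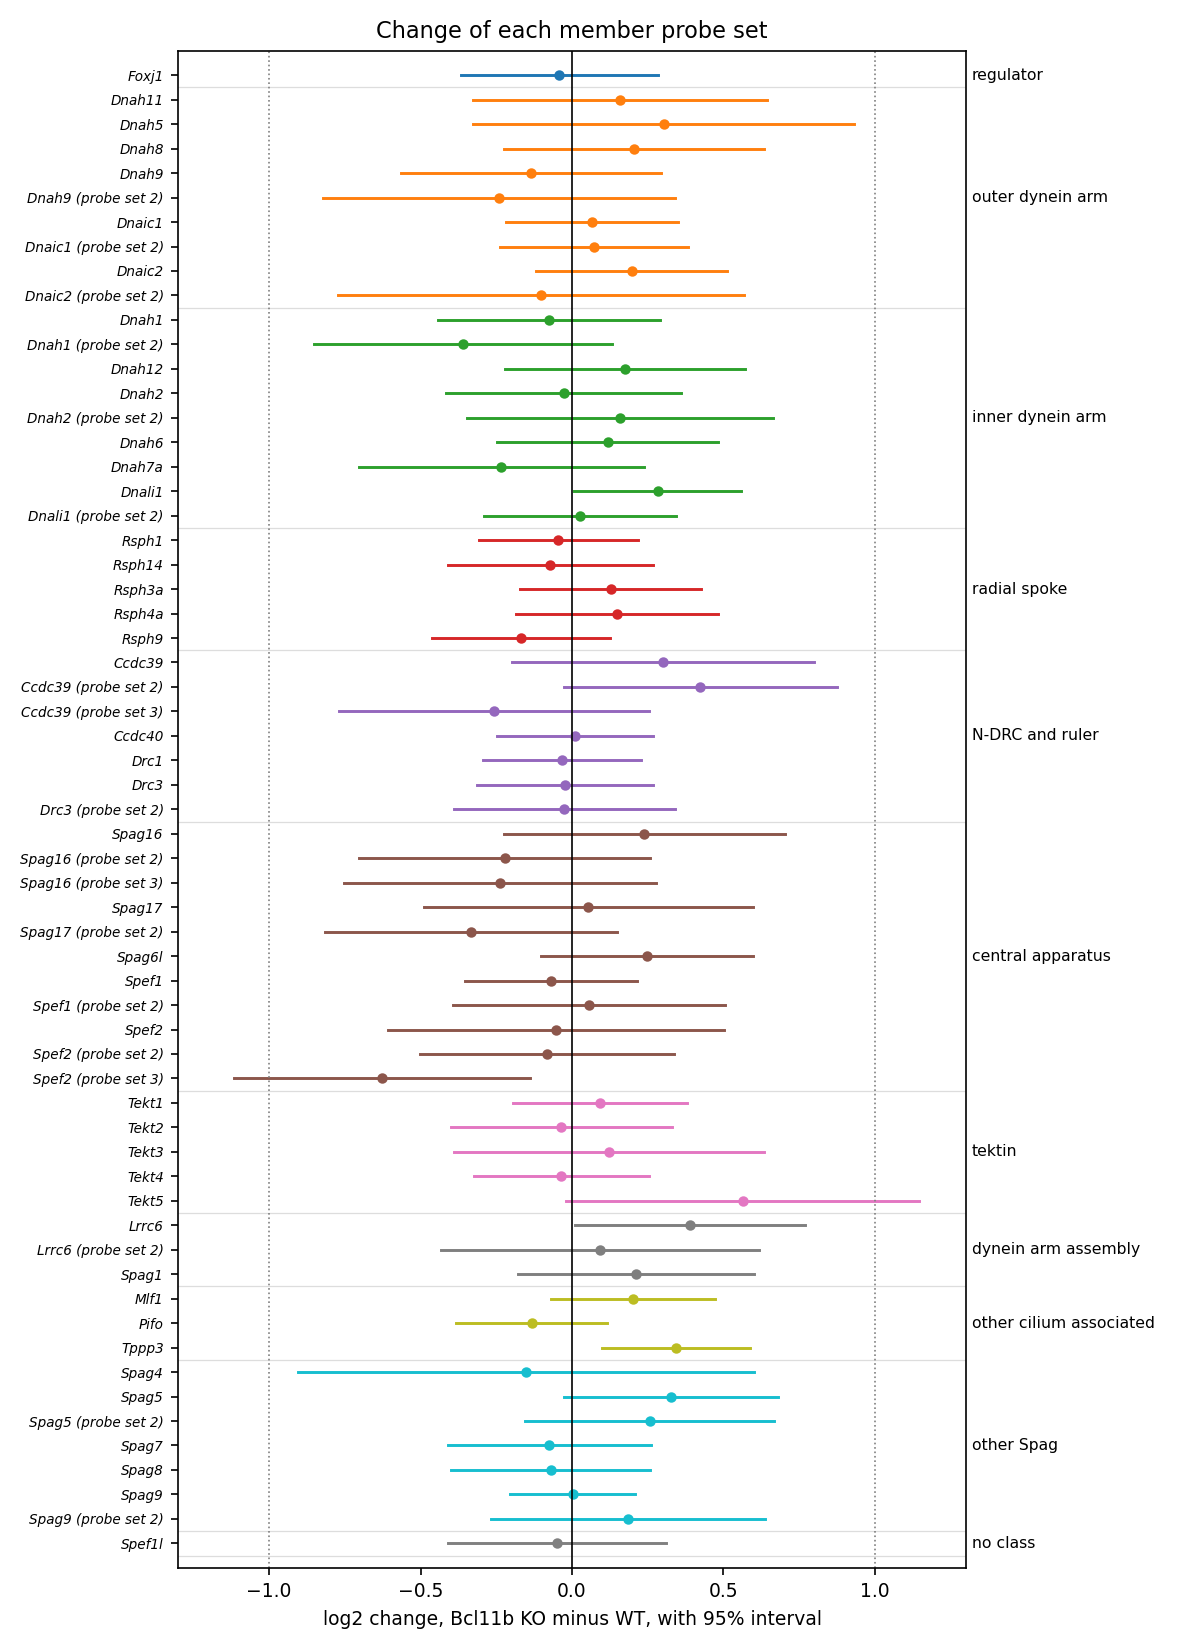
Each point is the log2 change of 1 member probe set, Bcl11b KO minus wild type on the log2(signal + 16) scale, and each line its 95% interval from limma; colours and labels give the class, the dotted lines mark 2-fold, and a gene's probe sets are numbered by brightness. The intervals of 59 of 61 probe sets lie between the dotted lines, and 4 do not cross 0.

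Foxj1, the forkhead factor that switches on the motile cilia program, did not pass the test. Its signal was 365.7, 376.8, 399, 345.3 and 410.6 in wild type, and in KO the lowest was 246.5, the median 385.7 and the highest 449.4. The KO arrays lay on both sides of the wild type range, 2 above it and 1 (KO 3) below it. On the log2 scale it changed by -0.042 ± 0.15 (SE; limma, adjusted p = 0.991), with an interval from 0.776-fold to 1.22-fold.

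The outer dynein arm, the motor row that sets beat frequency, was represented by 6 genes, of which 5 had a positive change and 1 a negative one (median 0.18, smallest adjusted p 0.932). Dnaic2, an intermediate chain, read 585.9, 570.8, 454.6, 361.4 and 520.9 in wild type and from 459.2 through a median of 597.3 to 630.2 in KO. In KO 4 of the 6 arrays exceeded every wild type array, yet the groups overlapped, and the log2 change of 0.20 ± 0.15 (SE) had an adjusted p of 0.932 (limma). Its dim second probe set had a change of -0.10. The heavy chain Dnah5 read 119.9, 115.9, 32.5, 54.9 and 75.1 in wild type and 41.7 to 153.7 in KO, with a median of 90.2. That wide spread ran across both groups, and its change was 0.30 ± 0.30 (SE). Dnah8, a heavy chain best known from sperm, changed by 0.20, Dnah11 by 0.16, the intermediate chain Dnaic1 by 0.065 and the heavy chain Dnah9 by -0.14, and none of them passed the test.

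Of the 6 inner dynein arm genes, whose motors shape the bend, 3 changed positively and 3 negatively (median 0.045, smallest adjusted p 0.701). Dnali1, a light intermediate chain, gave the smallest p. It read 626.5, 525.4, 673.2, 541.3 and 571.6 in wild type, and 636, 682.5 and 864.4 as the lowest, median and highest of KO. All 6 KO arrays were above the wild type median and 4 above every wild type array. On the log2 scale it changed by 0.28 ± 0.13 (SE; limma, adjusted p = 0.701), while the second probe set of Dnali1 gave 0.025. The heavy chain Dnah6 had the highest mean signal of the class, with wild type arrays at 968.7, 892.4, 649.8, 764.9 and 1330.8 and KO arrays between 739.9 and 1142.5, all inside the wild type range. Dnah12 changed by 0.18, Dnah2 by -0.028, Dnah1 by -0.076 and Dnah7a by -0.23, and none passed.

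The radial spokes, which carry signals from the central pair to the dyneins, gave 2 positive and 3 negative genes out of 5 (median -0.045, smallest adjusted p 0.947). Rsph1, a protein of the spoke head, had 1583.9, 1708.1, 2122.6, 1796.9 and 2017.5 in wild type and 1481.3, 1682.6 and 2237.9 as the lowest, median and highest of KO. The KO range enclosed the wild type range, and the change was -0.045 ± 0.13 (SE; limma, adjusted p = 0.99). Rsph9, also of the spoke head, had the smallest p here, with a change of -0.17 ± 0.14 (SE). Rsph4a changed by 0.15, Rsph3a by 0.13 and Rsph14 by -0.071.

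The nexin-dynein regulatory complex and the ruler proteins that set its spacing were represented by 4 genes, of which 2 changed positively and 2 negatively (median -0.0075). Ccdc39, a ruler protein, read 406.4, 356.6, 360.4, 286.2 and 375.1 in wild type, and 5 of the 6 KO arrays, up to 623.7, were above all of these. The sixth, KO 5, was at 180.6 and below all of them. The change was 0.30 ± 0.24 (SE; limma, adjusted p = 0.938), and without KO 5 it was 0.54. The second probe set of Ccdc39 also had 5 KO arrays above the wild type range, with KO 5 at 24, and a change of 0.42 ± 0.21 (SE; limma, adjusted p = 0.768), whereas its dimmest probe set, at a mean signal of 20.9 just inside the minimum, gave -0.26. Its partner Ccdc40 read 637.4, 633.1, 618.4, 599.4 and 692.3 in wild type and 576.1 to 753.1 in KO, with a change of 0.0094 ± 0.12 (SE). The base plate protein Drc1 changed by -0.033 ± 0.12 (SE) and Drc3 by -0.024 ± 0.14 (SE).

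The central apparatus, the central microtubule pair and its projections, gave 3 positive and 2 negative genes out of 5 (median 0.054). Spef1, which bundles the central pair, read 588.8, 552.3, 717.8, 599.5 and 623.9 in wild type and 477.5, 597.9 and 701.4 as the lowest, median and highest of KO, a change of -0.07 ± 0.14 (SE). Spef2 had the lowest change of all member probe sets, on its dimmest one. There the wild type arrays read 68.3, 99.2, 138.5, 89.1 and 113.1 and the KO arrays 25.3, 61.4 and 86.8 (lowest, median and highest), with 4 of 6 below every wild type array. On the log2 scale it changed by -0.63 ± 0.23 (SE; limma, adjusted p = 0.483). The other probe sets of Spef2, which are brighter, changed by -0.053 and -0.082. Spag6l changed by 0.25, Spag16 by 0.24 and Spag17 by 0.054 on their brightest probe sets, and the dimmer ones of Spag16 and Spag17 had negative changes between -0.33 and -0.22.

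The tektins, filaments inside the doublets, gave 3 positive and 2 negative genes out of 5 (median 0.092). Tekt2 read 708.2, 659.5, 953.3, 799.4 and 846.3 in wild type and 507.5, 757.5 and 1063.7 as the lowest, median and highest of KO, a change of -0.036 ± 0.17 (SE). Tekt5 had the largest positive change of all members with every array in, 0.56 ± 0.28 (SE; limma, adjusted p = 0.75), which was 0.26 without WT 1. It was dim, at 5.1, 54.5, 56.6, 22.7 and 47.1 in wild type and 45.3 to 70.7 in KO, and the low arrays WT 1 and WT 4 lay apart from the rest. Tekt3 changed by 0.12, Tekt1 by 0.092 and Tekt4 by -0.035.

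Among the genes for dynein arm assembly, which takes place in the cytoplasm, Lrrc6 read 166.9, 155.8, 142.2, 115.2 and 123.5 in wild type and 140.6, 183.2 and 278 as the lowest, median and highest of KO. In KO 4 of the 6 arrays lay above the wild type range. The change was 0.39 ± 0.18 (SE; limma, adjusted p = 0.703), and its dim second probe set gave 0.092. Spag1 changed by 0.21 ± 0.19 (SE).

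Tppp3, a microtubule bundling protein, had the smallest p of all members. It read 2577.9, 1809.8, 2533.9, 2177.3 and 2314.3 in wild type and 2504.8, 2850.2 and 3565.7 as the lowest, median and highest of KO. All 6 KO arrays were above the wild type median, and 5 were above every wild type array. The log2 change of 0.34 ± 0.12 (SE), with an interval from 0.10 to 0.59, had an adjusted p of 0.382 (limma) and so did not pass. Mlf1 read 1781.1, 1445.1, 1765.4, 1399.8 and 1497.9 in wild type and 1454 to 2160.6 in KO, a change of 0.20 ± 0.13 (SE). Pifo, a protein of the ciliary base, read 1726.3, 1601.5, 2138.2, 1710.2 and 1937.2 in wild type and 1423.8 to 1903.9 in KO, a change of -0.13 ± 0.12 (SE). Neither passed the test.

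**Figure D2:**
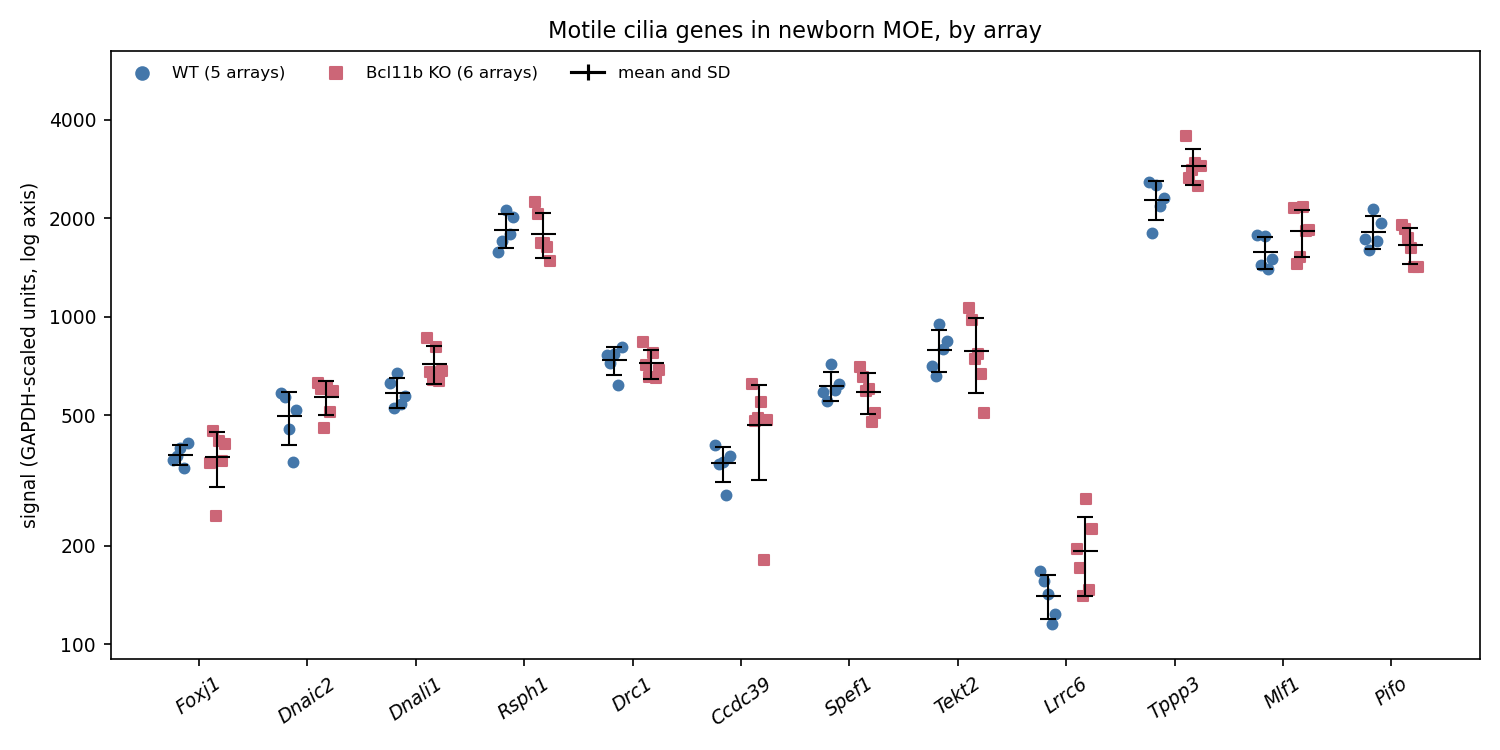
Signals of 12 motile cilia genes on their brightest probe sets, in GAPDH-scaled units on a log axis, with circles for the 5 wild type arrays, squares for the 6 Bcl11b KO arrays, and a black bar for the mean with its SD. The groups overlap for all 12 genes; Foxj1 lies between 345.3 and 410.6 in wild type and between 246.5 and 449.4 in KO, and Tppp3 has 5 KO arrays above all wild type arrays.

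Other Spag genes met the rule by name, and some of them are not axonemal. Spag5 belongs to the mitotic spindle, Spag9 is a scaffold of kinase signalling, and Spag4 lies in the nuclear envelope. Spag8 is a protein inside the doublet microtubules. Of these and Spag7, 5 genes in all, 2 changed positively and 3 negatively (median -0.07, smallest adjusted p 0.785). Spag5 read 184.5, 216.8, 215.6, 186.4 and 212.3 in wild type, 5 KO arrays were above all of these and KO 2 was below them at 173.1, a change of 0.33 ± 0.17 (SE; limma, adjusted p = 0.785). Spag9, the brightest, changed by 0.0027 ± 0.098 (SE), Spag7 by -0.075, Spag8 by -0.07 and the dim Spag4 by -0.15. Spef1l, which had no class here, changed by -0.05. The probe sets nearest the minimum of 20 were those of Ccdc39 at 20.9, Dnah2 at 21.3 and Lrrc6 at 21.4 on the inside, and of Spag5 at 18.7, Spag9 at 15.6 and Dnah8 at 15.3 on the outside.

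The arrays differed within each group more than the groups did. The log2 values of the 43 genes, each on its brightest probe set, averaged 8.59 ± 0.12 on the wild type arrays (SD, n = 5) and 8.66 ± 0.16 on the KO arrays (SD, n = 6). The lowest KO averages were those of the female arrays, KO 3 at 8.51 and KO 6 at 8.55. Wild type had no female array, and the part of sex in these averages was not tested. Within KO, array 1 was above the KO mean on 51 of 61 member probe sets and array 4 on 50, and within wild type, array 4 was above the mean on only 6 and was the lowest on 27. On KO 4 and WT 4 all probe sets leaned the same way, with 76.1% and 13% above their group mean. On other arrays the members and all probe sets parted, in both directions. On KO 1, 83.6% of the members were above the group mean beside 55.8% of all, while on WT 2 it was 44.3% beside 80.7%, on KO 5 41% beside 64.9% and on KO 6 36.1% beside 60.7%. None of these gaps was put to a test.

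**Figure D3:**
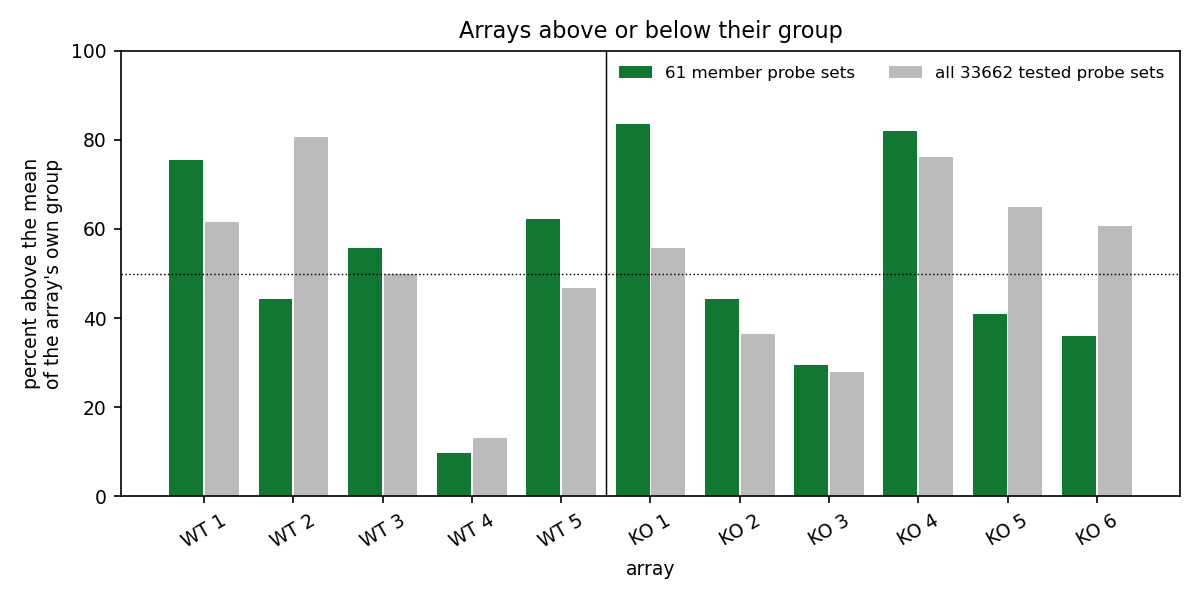
Share of probe sets, in percent, above the mean of the array's own group, for the 61 member probe sets (green) and for all 33662 tested probe sets (grey), by array, with a dotted line at 50. KO 1 stands at 83.6% for members and 55.8% for all, WT 2 at 44.3% and 80.7%, and WT 4 at 9.84% and 13%.

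**Figure D4:**
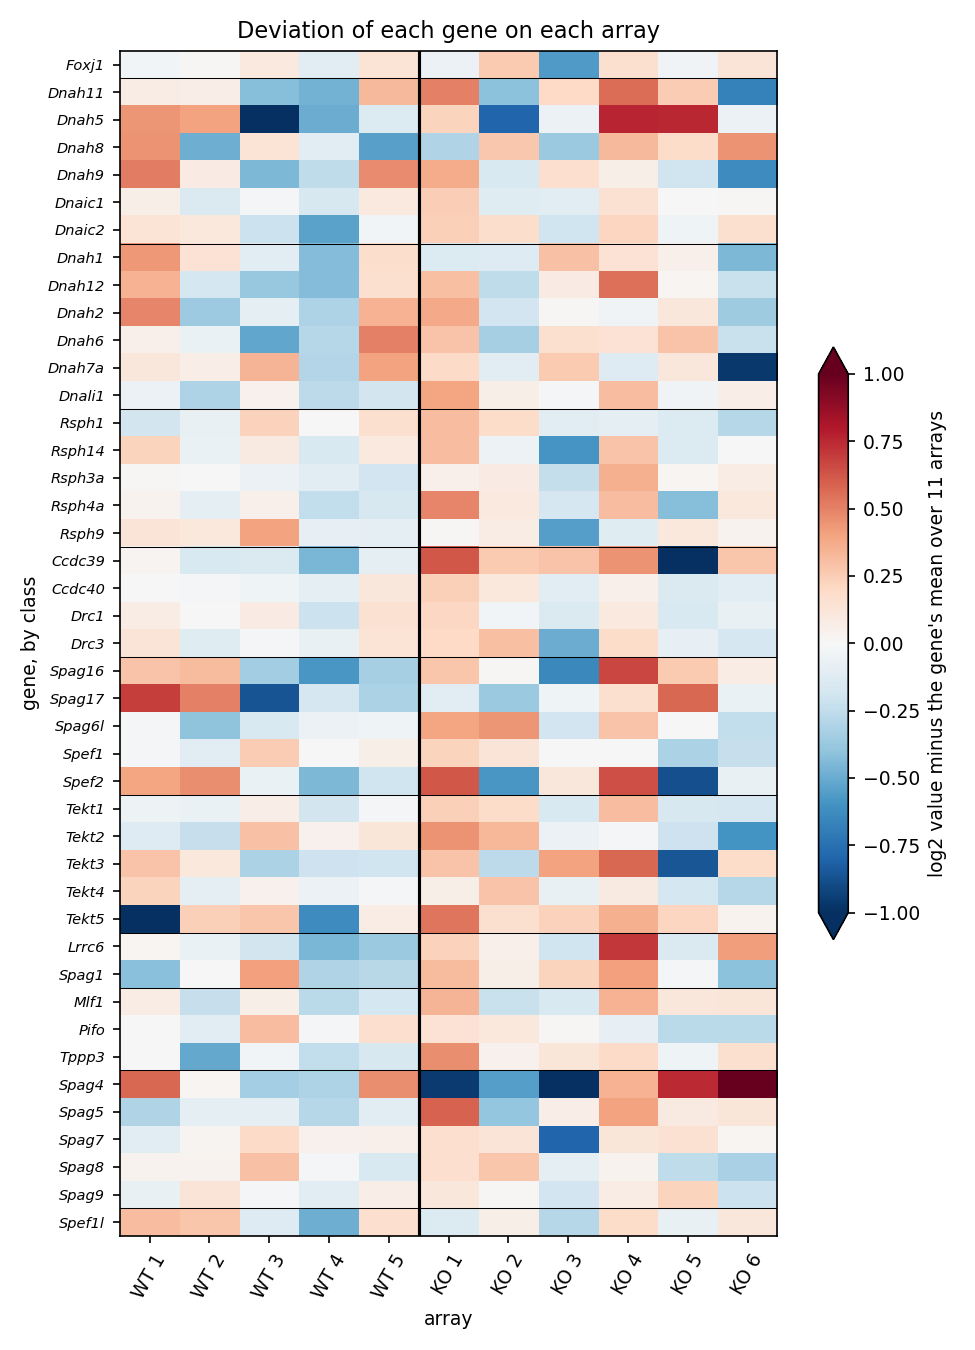
Log2 value of each of the 43 genes on its brightest probe set minus its mean over the 11 arrays, with genes grouped by class (horizontal lines), wild type arrays left and Bcl11b KO arrays right of the vertical line; the colours end at -1 and 1. KO 1 is red for most genes and WT 4 blue.

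The arrays were also divided by their poly-A control signal, spiked RNA that follows the labelling. The cut was made at the widest gap, into higher (WT 1, WT 2, KO 4, KO 5 and KO 6) and lower arrays. Mean log2 values of this signal ran from 7.87 to 8.31 on the lower arrays and from 8.60 to 9.02 on the higher ones. The split is a choice of the analysis and not a label of the arrays. In a fit with genotype, added after the data had been seen, 3 of the 61 member probe sets passed the test as higher on the arrays of higher poly-A signal. This is near the share of all probe sets, 5.63%. They were Spag4 by 1.02, Dnah5 by 0.82 and Spag17 by 0.69 (limma, adjusted p = 0.0347, 0.0411 and 0.0483). Of the members 33 of 61 changed positively (median 0.040), beside 27795 of all 33662 probe sets (median 0.20). With the poly-A level as a covariate of the genotype, 0 members were called.

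Other genes of motile cilia were listed from their known roles under 100 symbols, which hold both older and newer names of some genes. Of these symbols 63 were on the array. The genes tested were 61, and 0 passed the test, beside 0.455% of all probe sets. At an unadjusted p under 0.05, 5 were higher and 2 lower, beside 4.47% and 2.45% of all. Their median change was 0.09, with 43 positive and 18 negative, beside a median of 0.047 and 60.4% positive over all probe sets. Deup1, which makes the deuterosomes that multiply basal bodies, had the smallest p. Its wild type signal was 198 ± 21.7 (SD, n = 5) and its KO signal 300 ± 56.6 (SD, n = 6), and its ranges of 177.4 to 222.7 and 237.2 to 391.2 did not overlap, as for 1.29% of all probe sets. The change was 0.55 ± 0.15 (SE; limma, adjusted p = 0.19). Ccdc65, a protein of the nexin-dynein regulatory complex also called Drc2, had a wild type signal of 221 ± 27 (SD, n = 5) and a KO signal of 157 ± 22.4 (SD, n = 6), with a change of -0.46 ± 0.15 (SE; limma, adjusted p = 0.343). Ttc29 changed by 0.47 and did not pass. Other tested proteins of that complex went both ways, Iqca (Drc11) by 0.41, Tcte1 (Drc5) by 0.27, Iqcg (Drc9) by 0.11 and Gas8 (Drc4) by -0.38. None of them passed either. The ranges of Gas8 did not overlap either, at 557 to 643.1 in wild type and 314 to 551.3 in KO.

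Markers of other cells were read from the same arrays. Of 7 tested markers of respiratory secretory cells, 0 passed, with a median change of 0.066 and a mean log2 level of 9.87 to 10.5 in wild type and 9.94 to 10.6 in KO. At an unadjusted p under 0.05 (limma), 2 of them were higher, Scgb3a1 by 0.57 and Muc5b by 0.50, and 1 was lower, Bpifb1 by -0.47. Among markers of immature OSNs, sustentacular cells, basal cells, ensheathing glia and cartilage 0 passed, with medians from -0.26 (cartilage) to 0.34 (ensheathing glia). At an unadjusted p under 0.05 (limma), Fabp7 of the ensheathing glia was higher, by 0.86. Krt15 of the basal cells and Cyp1a2 of the sustentacular cells were lower, by -1.22 and -0.46. Of 9 mature OSN markers 4 passed as lower and all 9 changes were negative, with a median of -0.57, and of 4 erythroid markers the embryonic globins Hbb-y and Hbb-bh1 passed as higher, by 2.19 and 2.0, while Alas2 at 0.17 and Slc4a1 at 0.34 did not pass. The part of these shifts in the members' values was not tested.

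Promoters were read from RefSeq windows (build GRCm38.p6) running from 250 bases before to 50 after a gene's start, which exist for 37 of the 43 genes. They are shown because RFX factors and Foxj1 are known as the regulators of motile cilia genes. In the exact forms searched, the 2 motifs chosen for the search were in few of these promoters. Sites that depart from these forms were not counted here. An X-box, here GTTNCC and GGNAAC with 0 to 3 bases between, was in 1 promoter (Pifo), 2.70% of 37 beside 0.936% of 27025 genes with a window, and the forkhead word TGTTTAC, on either strand, in 2 (Mlf1 and Tekt3), 5.41% beside 4.05%. They lie at chr3:106001496-106001525 on the minus strand, chr3:67373969-67373998 on the plus strand and chr11:63061473-63061502 on the plus strand, with the motif in capitals:
Pifo: gcggttccGTTCCCTTGGCAACgtagtaca
Mlf1: acgccgccagtgTGTTTACagaggttgcca
Tekt3: aaatattatttgTGTTTACtgaaaacttaa

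After these counts were known, 5 further words were searched on both strands, and all 5 are given, with no test. GTTGCTA differs from GTTNCC and so lies outside the X-box as defined above. It was in 14 of the 37 promoters, 37.8%, beside 4.28% of all genes, and GTTGCCA was in 5, 13.5%, beside 5.03%. GTTGCC was in 12, 32.4%, beside 14.1%, and GTTNCC, which takes in every GTTGCC, in 27, 73.0%, beside 48.8%. GTTGCC extended by ATGG was in 0, beside 0.633%. As GTTGCTA was singled out from these counts, its share is a description of the search and not evidence about a factor. In the 61 other motile cilia genes, 50 of them with a window, GTTGCTA was in 19, 38%, and GTTGCCA in 14, 28%. For each structural class other than the inner dynein arm, the gene of highest mean signal with GTTGCTA is shown, with the word or its reverse complement TAGCAAC in capitals. The windows are chr11:114727374-114727403 (plus strand), chr10:75032577-75032606 (minus), chr11:60353343-60353372 (plus), chr2:131174829-131174858 (minus) and chr16:10395673-10395702 (minus), in the order of the lines:
Dnaic2: ggcccggccaggGTTGCTAggcaactggta
Rsph14: ctggcagtctccTAGCAACcaggtcgcctg
Drc3: ttgacttcccctTAGCAACcaagtggcggt
Spef1: caagtagcgacgGTTGCTAtggtttcggaa
Tekt5: ggttgtgatgtgGTTGCTAggaacttagct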

How the data were processed

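The deposited values are intensities on a linear scale, 1 per probe set and array (Affymetrix Mouse Genome 430 2.0). By the published protocol, nanograms of RNA were amplified in 2 rounds, and the authors scaled the arrays to GAPDH in GCOS. This probe set reads 10000 throughout, so any GAPDH difference would shift the rest. No detection calls entered here.

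Signals were used as log2(signal + 16), which understates changes of dim probe sets. KO was compared with wild type in limma 3.58.1 (R 4.3.3; lmFit, eBayes with trend, no covariate), adjusted by Benjamini-Hochberg over all 33662 probe sets, with a threshold of 0.05; the fit was checked on simulated data. Members and lists were chosen with earlier results of these data known. A gene was given by its brightest tested probe set. Genes named were the 7 listed by name, the brightest gene and those of smallest p in each class, members of smallest p in each direction, those nearest the minimum signal, and of the other cilia genes those of smallest p and the tested ones of the nexin-dynein regulatory complex. The remaining members, outside this rule, are named with their change so that every gene is accounted for. The number of arrays limits the precision. A promoter stretch of the inner dynein arm class is not reported here.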

Additional observations from a re-analysis of the deposited data

Results flagged for a closer look

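On 4 of 90 sets of values, 1 array stood apart from the rest of its group by Dixon's test at 95%, where chance gives about 1 in 20. In the KO group these were Ccdc39, with KO 5 lowest (gap over range 0.788), Dnah7a, with KO 6 lowest (0.682), Rsph9, with KO 3 lowest (0.648), and Spag7, with KO 3 lowest (0.845).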

How the results depend on the processing

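No member passed the test in either direction under any of the alternatives, which were other scalings, pseudocounts, filters, variance models, sexes, covariates, splits and arrays left out. Over all probe sets, 153 calls became 293 with quantile normalization, 320 with spiked control scaling, 345 with array weights, 284 without the 2 KO arrays of highest GAPDH ratio, 91 with the replicate number as a block, and 31 and 39 within the arrays of higher and lower poly-A signal. Leaving out each array in turn gave 85 (without WT 3) to 213 calls. The members' median moved to -0.18 with spiked control scaling, which moved that of all probe sets to -0.12. It rose to 0.10 with males only (all probe sets 0.086) and to 0.11 without the 2 KO arrays of highest GAPDH ratio (all 0.13). Sex as a covariate gave the same changes as males only by design and is no second support. Leaving out each array gave -0.019 to 0.068. Of the other motile cilia genes 1 was called with quantile normalization and 1 with spiked control scaling (Ccdc65, lower), and 1 without the 2 KO arrays (Deup1, higher). Same-numbered arrays of the groups did not deviate together (r from -0.28 to 0.0085), so the replicate number is no pairing.

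The change of a single gene turned sign in 122 of 1196 values, none past the threshold on either side. The largest reported change among them was that of Ccdc39, 0.30. With array median scaling these were Ccdc40 -0.042 and Spag9 -0.049, with quantile normalization Ccdc40 -0.050 and Spag9 -0.073, and with array weights Drc3 0.00082, Spag7 0.0086 and Spef2 0.071. With males only, and with sex as a covariate, they were Dnah2 0.051, Drc1 0.013, Drc3 0.14, Foxj1 0.058, Rsph1 0.041, Rsph14 0.062, Spag7 0.10, Spag8 0.019, Tekt2 0.12 and Tekt4 0.046. With the mean of a gene's probe sets they were Dnah2 0.065, Spag16 -0.074 and Spag17 -0.14, with the poly-A level as covariate Spag17 -0.015, Spag9 -0.0021 and Tekt2 0.0073, and with the replicate block Dnah1 0.0061, Dnah2 0.040, Drc3 0.0067, Rsph1 0.0070, Tekt2 0.080 and Tekt4 0.018. With spiked control scaling they were Ccdc40 -0.18, Dnah11 -0.013, Dnah12 -0.0016, Dnah6 -0.069, Dnaic1 -0.11, Rsph3a -0.048, Rsph4a -0.036, Spag17 -0.086, Spag9 -0.19, Tekt1 -0.092 and Tekt3 -0.011. Within the arrays of higher poly-A signal they were Ccdc39 -0.053, Ccdc40 -0.062, Dnah11 -0.025, Dnaic2 -0.013, Foxj1 0.089, Spag17 -0.37, Spag4 0.40, Spag7 0.14 and Tekt3 -0.23. Within those of lower signal they were Dnah1 0.14, Dnah2 0.085, Dnah9 0.21, Drc1 0.0077, Rsph1 0.0015, Spag8 0.076, Spag9 -0.0046, Spef1 0.0084, Spef1l 0.031, Spef2 0.29, Tekt2 0.087 and Tekt4 0.10. Without the 2 KO arrays of highest GAPDH ratio they were Dnah2 0.011, Drc1 0.0017, Drc3 0.019, Foxj1 0.025, Rsph14 0.074, Spag4 0.20, Spag7 0.073 and Spef2 0.052. Leaving out each array in turn gave ranges across 0, of -0.037 to 0.040 for Ccdc40, -0.19 to 0.021 for Dnah1, -0.12 to 0.091 for Dnah2, -0.092 to 0.00044 for Drc1, -0.086 to 0.072 for Drc3, -0.097 to 0.068 for Foxj1, -0.11 to 0.0070 for Rsph1, -0.14 to 0.041 for Rsph14, -0.15 to 0.24 for Spag17, -0.37 to 0.037 for Spag4, -0.11 to 0.077 for Spag7, -0.041 to 0.046 for Spag9, -0.18 to 0.021 for Spef1l, -0.19 to 0.12 for Spef2, -0.13 to 0.080 for Tekt2 and -0.095 to 0.018 for Tekt4. The cause was not tested.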

Other observations

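Probe sets shared by several genes were not members. That of Rsph3b and Rsph3a changed by 0.078 ± 0.11 (SE) and that of Dnah7c and Dnah7b by 0.12 ± 0.18 (SE), and their arrays overlapped between the groups.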
